A study of Mus musculus with 8 samples.

Results

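The genes described here are 10 genes of the mouse pigment cell, chosen by name: Tyr, Tyrp1, Dct, Pmel, Mlana, Mitf, Kit, Sox10, Oca2 and Slc45a2. They are 10 of the 27179 genes in a table of bulk RNA sequencing counts from mouse epidermal cells, and all 10 had enough reads to be tested. The table holds 8 libraries, 4 from aged and 4 from adult C57BL/6J mice, and the methods describe separate mice. Aged mice were 73 weeks old and adult mice 17 to 25 weeks old by their labels. The labels also list for every mouse, in both groups, a control IgG1 antibody, 210 µg in a volume of 100 µl, injected intraperitoneally 3 times a week over 12 weeks. The methods describe such injections for ageing mice that started at 73 weeks. They give aged mice in general an older age than the labels do. They also name the bulk RNA sequencing of adult and aged mice apart from that of injected mice, with another library kit. Whether adult mice were injected, and how old aged mice were at collection, is therefore not settled here, and age cannot be told apart from an injection given to aged mice alone. Epidermis was peeled from the dermis of torso skin with dispase, mice were killed in the dark phase, and skins could be at any stage of the hair cycle. RNA came from all the cells so obtained, with no sort for pigment cells.

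Melanocytes are pigment cells of neural crest origin. In the furred skin of the mouse they lie mainly in hair follicles, where their stem cells rest in the upper follicle and their mature progeny in the bulb hand pigment to the growing hair shaft. Melanin is made in melanosomes, which are built on fibres of the protein Pmel and filled by the enzymes Tyr, Tyrp1 and Dct. The transcription factor Mitf binds E-boxes and the longer M-box in the promoters of these enzyme genes, Sox10 acts upstream of Mitf, and the receptor Kit feeds into both the survival and the migration of the cells.

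The promoters of the enzyme family are shown because they share a stretch that the windows of the other members with sequence lack. RefSeq promoter windows on GRCm38.p6, 250 bases before to 50 bases after a transcription start, were at hand for 6 members (9 windows): Tyr, Tyrp1, Dct, Mitf, Kit and Oca2. The 250 bases before the start are printed 5′ to 3′ on the gene's strand, at chr7:87493513-87493762 (minus strand) for Tyr, chr4:80833963-80834212 (plus strand) for Tyrp1 and chr14:118052247-118052496 (minus strand) for Dct. Capitals mark TCATGTG, the core of the M-box, or its reverse complement CACATGA.
Tyr: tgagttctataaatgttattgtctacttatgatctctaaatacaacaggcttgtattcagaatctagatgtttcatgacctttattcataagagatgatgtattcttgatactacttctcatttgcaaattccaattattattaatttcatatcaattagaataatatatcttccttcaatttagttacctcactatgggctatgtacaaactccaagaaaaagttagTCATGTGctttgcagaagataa
Tyrp1: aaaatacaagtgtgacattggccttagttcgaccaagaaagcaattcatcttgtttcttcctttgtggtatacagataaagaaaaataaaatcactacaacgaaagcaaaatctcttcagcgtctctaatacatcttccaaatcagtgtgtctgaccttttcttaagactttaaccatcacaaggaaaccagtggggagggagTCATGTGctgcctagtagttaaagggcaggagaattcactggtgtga
Dct: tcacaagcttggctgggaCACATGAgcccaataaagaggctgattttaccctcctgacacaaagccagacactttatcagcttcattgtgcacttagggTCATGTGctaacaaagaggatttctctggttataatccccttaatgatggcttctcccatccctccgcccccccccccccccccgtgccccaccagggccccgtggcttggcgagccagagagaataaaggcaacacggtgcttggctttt
The stretch lay 22 to 16 bases before the start in Tyr and 47 to 41 bases before it in Tyrp1. Dct held it at 151 to 145 bases before the start and, on the opposite strand, at 232 to 226. It was in the windows of 3 of 6 members, and in 3.77% of the 32851 promoter windows of the genome. The shorter E-box CATGTG, which TCATGTG contains, was also in Oca2, giving 4 of 6 members against 14.2% of all windows, and the E-box CACGTG was in 0 of 6 against 7.15%. Of the SOX-type motifs, ACAAAG was in Dct, Oca2 and Tyrp1 (18.7% of all windows) and ACAATG in Dct (12.6%). TGACG, part of the cyclic AMP response element, was in the most downstream of the Mitf windows (20.8% of all windows). Members were counted as genes and the background as single windows, so these shares have unlike units. All motifs were searched on both strands, and a match describes letters, not binding.

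The libraries held 75027694 to 90140102 counts in aged mice and 77609101 to 86345617 in adult mice. At that depth the scaled level of 3 counts, which a count of 0 allows, was 0.0315 to 0.0420 CPM (counts scaled to an equal library total) in a library. Levels below are CPM after trimmed-mean (TMM) scaling. Keratinocyte markers dominated, with a summed level of 17560 to 23410 CPM over 8 genes in aged and 16390 to 23130 CPM in adult libraries. Adult replicates 3 and 4 stood apart from adult replicates 1 and 2. Their 10 inner root sheath genes, which mark the growing follicle, summed to 475 and 986 CPM, against 31.2 and 139 CPM in adult replicates 1 and 2, and their 7 genes of Langerhans cells and macrophages to 31.1 and 71.0 CPM, against 271 and 266 CPM. Aged libraries shared part of this split. Their genes of Langerhans cells and macrophages summed to 301, 161, 134 and 99.8 CPM in replicates 1 to 4. Mitochondrial genes gave 21.0%, 17.3%, 24.3% and 25.5% of counts in aged replicates 1 to 4. In adult replicates 1 to 4 they gave 17.5%, 18.2%, 25.3% and 31.1%. Inner root sheath sums of aged libraries did not split this way. Values without adult replicates 3 and 4 are given where they turn a direction or change a call. Such fits keep aged replicates 3 and 4 and are unbalanced over replicate numbers.

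No member differed between aged and adult epidermal cells by more than the spread between libraries. Calls came from edgeR's quasi-likelihood test over 17702 genes and needed an adjusted p (Benjamini-Hochberg) under 0.1 together with a log2 fold change of more than 0.32 in either direction. The test called 0 of the 10 members, as did DESeq2 and limma-voom, and 0 members had an unadjusted p under 0.05. Over all tested genes edgeR called 20, or 0.113%, with 5 higher in aged cells (0.0282%) and 15 lower (0.0847%), DESeq2 called 1.07%, limma-voom 0.096%, and 5.99% had an unadjusted p under 0.05. A count of 0 among 10 genes is thus no different from this background. The values of the groups overlapped for all 10 members, while they did not overlap for 3.54% of all tested genes. The estimate was below 0 for 9 members and above 0 for Sox10, with a median log2 fold change of -0.17 over the 10 against 0.01 over all tested genes. Of the 17702 tested genes, 8482 lay below 0. Without the adult libraries that stood apart, Tyr, Pmel, Oca2 and Slc45a2 lay above 0 and the other members, Sox10 included, below. In bulk RNA, a change in the number of pigment cells and a change in RNA per pigment cell cannot be told apart in either direction.

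**Figure D1:**
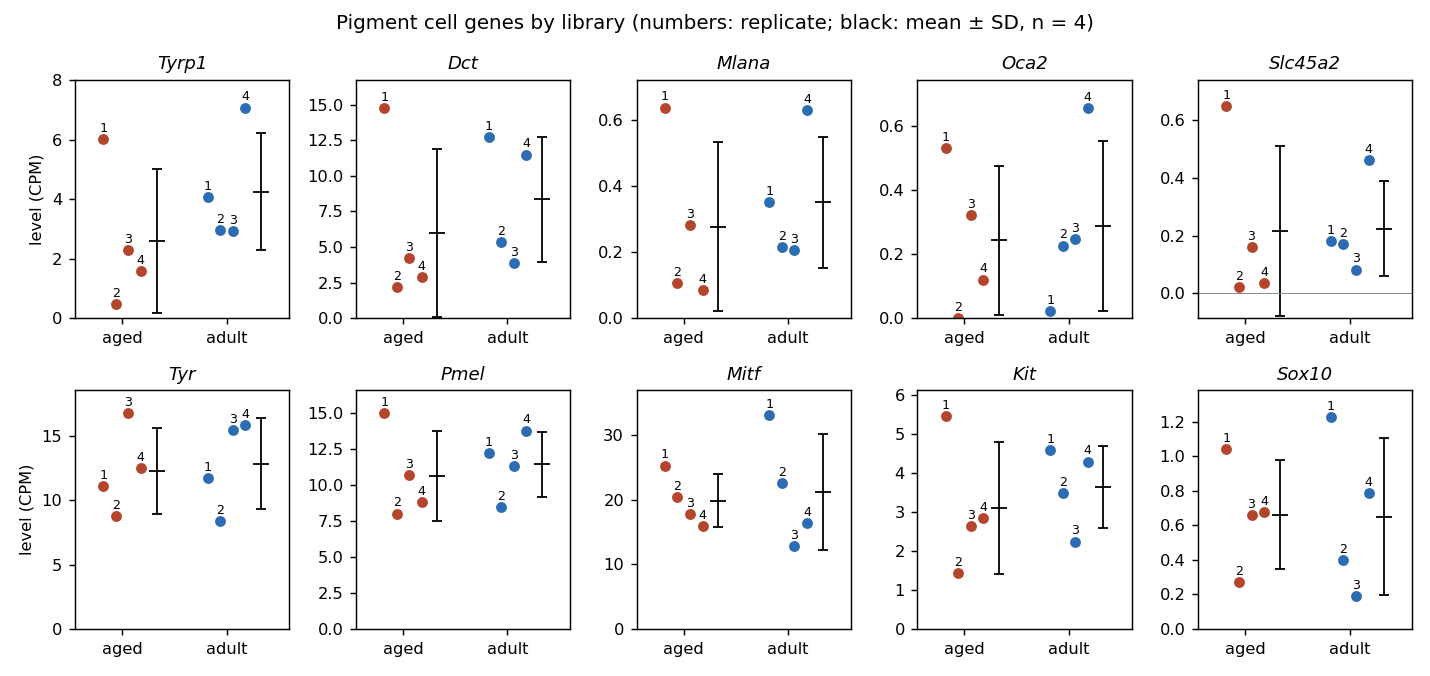
Level of each of the 10 genes in every library (y axis, CPM after TMM scaling; points are libraries numbered by replicate, aged left of adult; black bars are the mean ± SD, n = 4 each). Tyr lay between 8.36 and 16.7 CPM in all 8 libraries, whereas Tyrp1 lay between 0.483 CPM in aged replicate 2 and 7.08 CPM in adult replicate 4.

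Tyr encodes tyrosinase, the rate-limiting enzyme of melanin synthesis, which is lost in albino mice. The gene lies on chromosome 7 (87424771 to 87493512, minus strand, GENCODE vM21 on GRCm38). It stood at 11.1, 8.79, 16.7 and 12.5 CPM in aged replicates 1 to 4, against 11.7, 8.36, 15.5 and 15.8 CPM in adult replicates 1 to 4. Both groups covered nearly the same range, and replicate 2 was the lowest in each. The log2 fold change of aged over adult was -0.07 ± 0.24 (standard error, SE; edgeR adjusted p = 0.977), with a 95% interval from -0.61 to 0.48, or 0.654-fold to 1.39-fold. Tyr was thus measured more tightly than most members, on 737 to 1249 counts per library.

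Tyrp1, on chromosome 4 (80834123 to 80851719, plus strand), encodes a melanosomal enzyme that acts after tyrosinase and is the brown locus of the mouse. Its levels were 6.03, 0.483, 2.28 and 1.59 CPM in aged replicates 1 to 4, against 4.07, 2.97, 2.92 and 7.08 CPM in adult replicates 1 to 4. Aged replicates 2, 3 and 4 lay below all 4 adult libraries, and aged replicate 1 above 3 of them. The mean was 2.60 ± 2.41 CPM in aged cells against 4.26 ± 1.96 CPM in adult cells (SD, n = 4 each), and the log2 fold change was -0.71 ± 0.63 (95% interval -2.14 to 0.71, edgeR adjusted p = 0.879). This was the lowest estimate among the members, and it did not pass. With each library left out in turn it ranged from -1.56, without aged replicate 1, to -0.36, without adult replicate 4, and it passed in none of these fits.

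Dct, on chromosome 14 (118012790 to 118052244, minus strand), encodes dopachrome tautomerase, which acts between the other enzymes and is also made by melanocyte stem cells and melanoblasts. It was measured at 14.8, 2.20, 4.21 and 2.86 CPM in aged replicates 1 to 4, against 12.7, 5.34, 3.88 and 11.5 CPM in adult replicates 1 to 4. Aged replicate 1 was the highest of all 8 libraries and the other 3 aged libraries were among the 4 lowest, together with adult replicate 3. The log2 fold change was -0.48 ± 0.62 (95% interval -1.87 to 0.92, edgeR adjusted p = 0.910). With each library left out in turn it ranged from -1.44, without aged replicate 1, to -0.21, without adult replicate 1, and it passed in none of these fits.

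The members of the enzyme family therefore did not keep a fixed ratio between libraries. Per kilobase of exon, Dct stood at 1.61, 0.303, 0.303 and 0.276 times the level of Tyr in aged replicates 1 to 4, against 1.31, 0.771, 0.302 and 0.873 times in adult replicates 1 to 4. Aged replicate 1 had the highest ratio of all, and the other aged libraries lay close to adult replicate 3. Tyrp1 stood at 1.37, 0.138, 0.342 and 0.321 times Tyr in aged replicates 1 to 4 and at 0.875, 0.893, 0.474 and 1.12 times in adult replicates 1 to 4. Tyr made up 25.1% to 69.4% of the summed per-kilobase level of the 3 enzymes in aged libraries and 31.4% to 56.3% in adult libraries, which overlap widely. Dct over Tyrp1 varied less, from 0.861 to 2.19 in aged and from 0.637 to 1.499 in adult libraries.

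**Figure D2:**
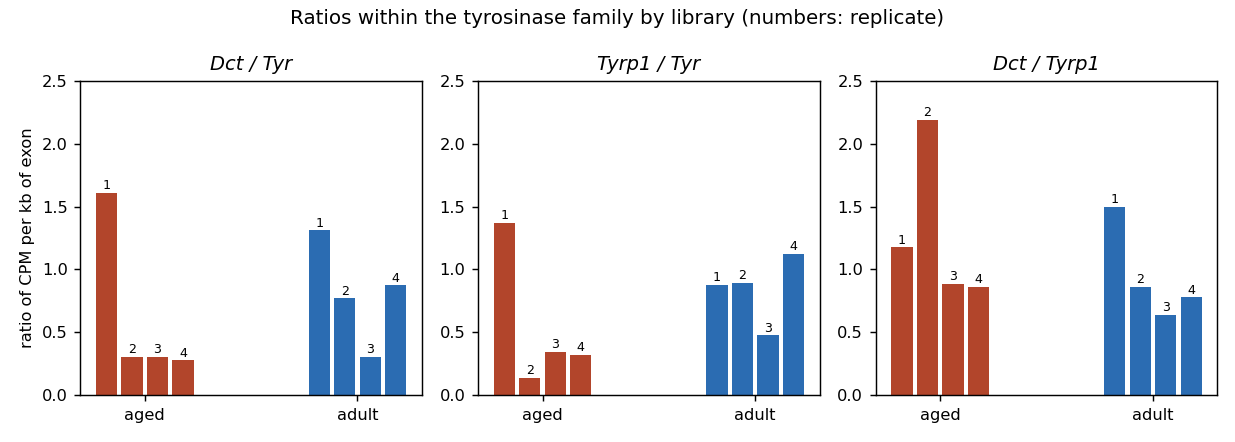
Ratios of Dct to Tyr, Tyrp1 to Tyr and Dct to Tyrp1 in every library (y axis, ratio of CPM per kilobase of exon; bars are libraries numbered by replicate, aged left of adult). Dct over Tyr was 1.61 in aged replicate 1 and 0.276 to 0.303 in the other aged libraries, against 0.302 to 1.31 in adult libraries.

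Pmel, on chromosome 10 (128704195 to 128720238, plus strand), encodes the protein whose fibres form the inner scaffold of the melanosome. It stood at 14.99, 8.02, 10.7 and 8.82 CPM in aged replicates 1 to 4, against 12.2, 8.46, 11.3 and 13.8 CPM in adult replicates 1 to 4. The groups covered almost the same range, and the log2 fold change was -0.11 ± 0.22 (95% interval -0.60 to 0.38, edgeR adjusted p = 0.950). In GENCODE vM21, Pmel has neighbours on the opposite strand, Cdk2 and Dgka, which share 34 and 105 exon bases with it. The counts were made on another annotation, in which this overlap was not checked. Dgka stood at 153 ± 11.3 CPM in aged cells against 147 ± 9.86 CPM in adult cells, and Cdk2 at 33.01 ± 2.57 CPM against 27.2 ± 6.77 CPM (SD, n = 4 each), and the sources used here do not give the strand setting of the counts. Reads of any shared bases can therefore not be assigned, and the part of these neighbours in the flat level of Pmel was not tested.

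Mlana, on chromosome 19 (29697824 to 29708634, plus strand), encodes a melanosomal membrane protein that assists Pmel and is known as Melan-A. It was low, with 55, 10, 21 and 7 counts in aged replicates 1 to 4, against 31, 19, 15 and 45 counts in adult replicates 1 to 4. That is 0.0845 to 0.637 CPM in aged libraries against 0.206 to 0.630 CPM in adult libraries, and the log2 fold change was -0.34 ± 0.66 (edgeR adjusted p = 0.946). Slc45a2 (chromosome 15, 11000721 to 11029233, plus strand) encodes a melanosomal transporter whose loss gives the underwhite coat. It had 56, 2, 12 and 3 counts in aged replicates 1 to 4 and 16, 15, 6 and 33 counts in adult replicates 1 to 4. The highest and the lowest library of Slc45a2 were both aged, 30.9-fold apart in CPM, and the log2 fold change was -0.04 ± 0.93 (edgeR adjusted p = 0.997).

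Oca2, on chromosome 7 (56239760 to 56536518, plus strand), encodes a chloride channel of the melanosome membrane that sets its pH and is the pink-eyed dilution locus. It had 46, 0, 24 and 10 counts in aged replicates 1 to 4, against 2, 20, 18 and 47 counts in adult replicates 1 to 4. The 0 counts of aged replicate 2 allow a level of up to 0.0315 CPM, which is above the 0.0227 CPM of adult replicate 1. The log2 fold change was -0.23 ± 1.04, with a 95% interval from -2.57 to 2.10 (edgeR adjusted p = 0.981). Of all members Oca2 had the widest interval, and neither a 4-fold rise nor a 4-fold fall lay outside it.

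Among the regulators, Mitf (chromosome 6, 97807052 to 98021349, plus strand) encodes the factor that binds the M-box. The gene has several promoters, of which the most downstream serves melanocytes, and counts per gene do not separate its isoforms. It stood at 25.3, 20.5, 17.8 and 16.0 CPM in aged replicates 1 to 4, against 33.2, 22.6, 12.8 and 16.4 CPM in adult replicates 1 to 4. Adult libraries held both the highest and the lowest value. The log2 fold change was -0.10 ± 0.28 (95% interval -0.72 to 0.52, edgeR adjusted p = 0.968), and without adult replicate 1 it was 0.21. The summed genes of Langerhans cells and macrophages were also lowest in adult replicate 3, at 31.1 CPM, but highest in aged replicate 1, at 301 CPM. The part of these or other cells in the level of Mitf was not tested.

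Sox10, on chromosome 15 (79154908 to 79165240, minus strand), encodes a neural crest transcription factor that is also made by Schwann cells. It had 90, 26, 49 and 56 counts in aged replicates 1 to 4, against 108, 35, 14 and 56 counts in adult replicates 1 to 4, or 0.273 to 1.04 CPM in aged libraries against 0.192 to 1.23 CPM in adult libraries. The aged range lay inside the adult range, and the log2 fold change was 0.02 ± 0.57 (95% interval -1.26 to 1.30, edgeR adjusted p = 0.997). The 11 listed Schwann cell genes, several of which other cells also make, summed to 282 to 366 CPM in aged libraries against 291.5 to 336 CPM in adult libraries, and their part in the level of Sox10 was not tested.

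Kit, on chromosome 5 (75574916 to 75656722, plus strand), encodes the receptor for stem cell factor on melanoblasts, melanocytes and mast cells. It stood at 5.45, 1.43, 2.64 and 2.84 CPM in aged replicates 1 to 4, against 4.59, 3.48, 2.23 and 4.28 CPM in adult replicates 1 to 4. Aged libraries held the highest and the lowest value, and the log2 fold change was -0.24 ± 0.39 (95% interval -1.11 to 0.63, edgeR adjusted p = 0.929). Several mast cell genes were at or near 0. Tpsab1, a tryptase, and Ms4a2, a chain of the IgE receptor, had 0 counts in all 8 libraries, and the protease gene Cpa3 had 8 counts over the aged libraries against 11 over the adult ones. The 11 listed mast cell genes summed to 8.59 to 11.6 CPM in aged libraries against 7.80 to 18.8 CPM in adult libraries, of which the receptor gene Mrgprb2 gave 8 to 10.9 CPM in aged libraries against 7.35 to 18.2 CPM in adult libraries. The part of mast cells in the level of Kit was not tested.

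**Figure D3:**
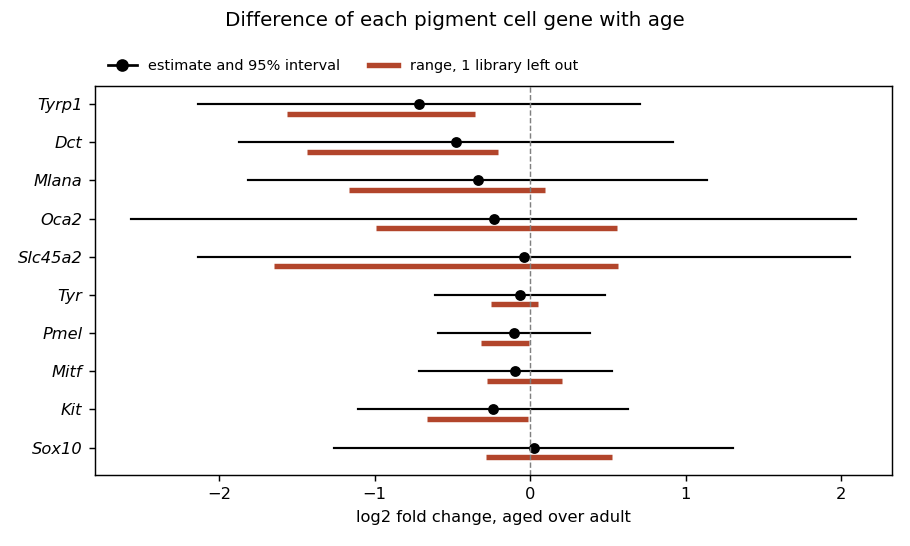
Log2 fold change of aged over adult for each member (x axis; black points and lines are the edgeR estimate and its 95% interval, red bars the range of estimates when each of the 8 libraries is left out in turn; the dashed line marks 0). All 10 intervals include 0, and they are narrowest for Pmel and Tyr and widest for Oca2.

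Compared per kilobase of exon, the order of the mean levels over all 8 libraries was Pmel at 4.82, Mitf at 3.32, Tyr at 1.77, Dct at 1.22, Tyrp1 at 1.21, Kit at 0.378, Mlana at 0.297, Sox10 at 0.215, Slc45a2 at 0.0738 and Oca2 at 0.0672 CPM per kilobase. Dct averaged 1.02 CPM per kilobase in aged and 1.42 in adult cells and Tyrp1 0.918 in aged and 1.51 in adult cells, so their order changed with the group and they did not differ beyond their spread. Slc45a2 and Oca2, next to each other in this order, did not differ beyond their spread either. Pmel keeps here the limit of its neighbours given above. The exon lengths are unions over all transcripts in GENCODE vM21, and a gene with unused exons, such as Mitf, is understated on this scale.

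The members differed in how far libraries of a group spread. The within-group SD on the log2 scale was 1.13 for Tyrp1 and 1.04 for Dct, larger than for 98.9% and 98.7% of the 14215 genes with a mean of at least 1 CPM, whose median was 0.21. Kit followed at 0.64 (94.1%), Mitf at 0.47 (86.1%), Tyr at 0.41 (81.7%) and Pmel at 0.35 (75.6%). Over all 8 libraries the highest level was 14.7 times the lowest for Tyrp1, 6.70 times for Dct and 3.82 times for Kit, against 2.60 times for Mitf, 2 times for Tyr and 1.87 times for Pmel. Mlana at 7.53 times and Sox10 at 6.39 times also ranged widely, on few counts.

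The same libraries recurred as the highest and the lowest across members. Aged replicate 1 was the highest aged library for 9 of 10 members, all but Tyr, and the highest of all 8 libraries for 5. Aged replicate 2 was the lowest aged library for 8 members and the lowest of all 8 libraries for 6. In the adult group, replicate 4 was the highest for 6 members and replicate 1 for the other 4, while replicate 3 was the lowest for 7. The 7 pigment production genes (Tyr, Tyrp1, Dct, Pmel, Mlana, Oca2 and Slc45a2) summed to 32.3 ± 12.6 CPM in aged cells against 37.8 ± 10.3 CPM in adult cells (SD, n = 4 each), a ratio of 0.854 that moved between 0.708 and 0.956 when libraries were left out in turn, and was 0.963 without adult replicates 3 and 4. Within replicates 1 and 2 alone this ratio was 1.02, and within replicates 3 and 4 alone it was 0.712. Tyr and Pmel gave 53.5% to 85.7% of the 7-gene sum in aged and 57.9% to 78.5% in adult libraries. Without them the remaining 5 genes summed to 9.35 ± 9.04 CPM in aged cells against 13.5 ± 6.33 CPM in adult cells, a ratio of 0.693 that ranged from 0.364, without aged replicate 1, to 0.846, without aged replicate 2, when libraries were left out in turn. The ratio of the 5 genes was 0.966 within replicates 1 and 2 alone and 0.426 within replicates 3 and 4 alone. This shorter sum was chosen after seeing the data.

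**Figure D4:**
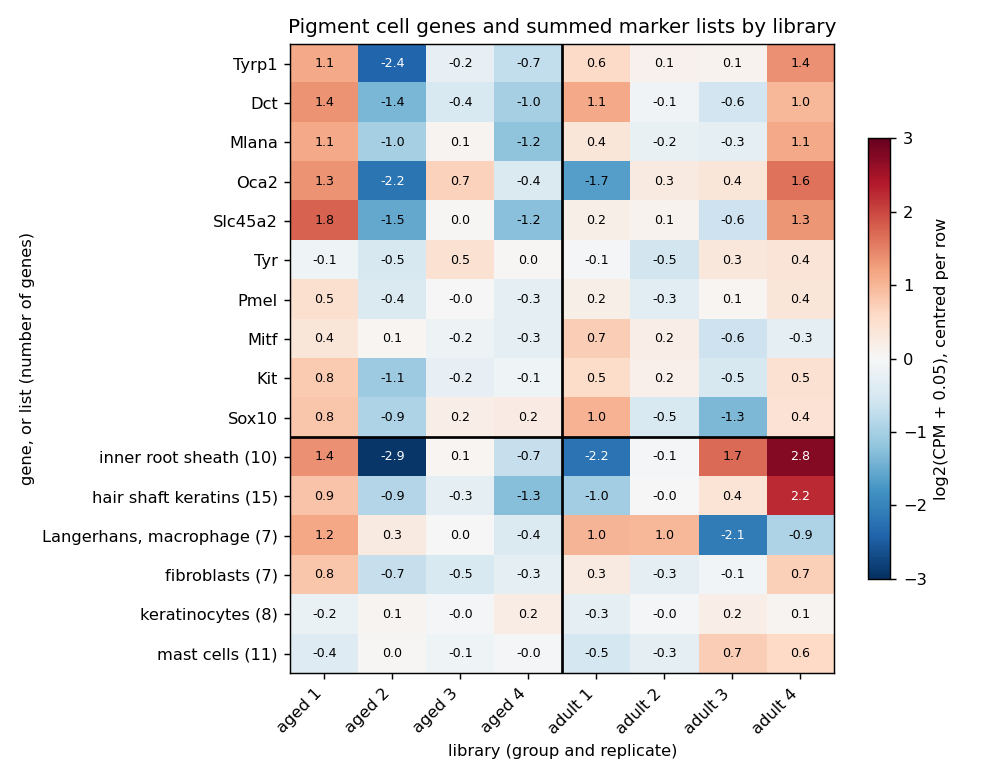
Heat map of the 10 members (above the black horizontal line) and of summed marker lists (below it, with the number of genes) across the 8 libraries, aged left of adult; colour and printed values are log2(CPM + 0.05) centred per row. Aged replicate 1 and adult replicate 4 are high for most production genes, aged replicate 2 is low for most members, and adult replicate 1 is high for Dct, Mitf and Sox10 while low for inner root sheath genes.

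Genes of the growing follicle moved with some of the members and not with others. The 10 inner root sheath genes summed to 375, 19.2, 153 and 90.7 CPM in aged replicates 1 to 4, against 31.2, 139, 475 and 986 CPM in adult replicates 1 to 4. Aged replicate 1 and adult replicate 4 were the highest of their group here and for Tyrp1 and Mlana, and aged replicate 2 was the lowest aged library here and for Tyrp1 and Dct. Adult replicates 1 and 3 went the other way, since Dct was at 12.7 CPM in adult replicate 1 with the least inner root sheath RNA of the adult group, and at 3.88 CPM in adult replicate 3 with 475 CPM of it. The 15 hair shaft keratin genes summed to 64.0, 19.3, 29.0 and 14.6 CPM in aged replicates 1 to 4 and to 17.3, 34.9, 47.0 and 168 CPM in adult replicates 1 to 4. The 7 fibroblast genes were also highest in aged replicate 1 and adult replicate 4, at 29.4 to 84.8 CPM in aged libraries against 39.6 to 78.4 CPM in adult libraries. The part of follicle stage and of other cells in the members' levels was not tested.

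None of the 13 lists of other cell types and follicle compartments held a called gene. The median log2 fold change was -1.55 over 14 hair shaft keratin genes, of which 1 lay above 0, and -1.15 over 10 inner root sheath genes, of which 1 lay above 0. Both directions rest on adult replicates 3 and 4, without which the medians were 0.53 and 0.92. Over all 8 libraries the median was -0.25 over 9 regulators of the hair matrix and -0.64 over 10 genes of hair follicle stem cells, the compartment beside which melanocyte stem cells rest. Of these 10 stem cell genes 6 were lower at an unadjusted p under 0.05, among them Fgf18, a signal of the resting follicle, at 1.29 ± 0.292 CPM in aged cells against 4.18 ± 1.29 CPM in adult cells (-1.69 ± 0.27, edgeR adjusted p = 0.109). The other medians were 0.45 for dermal papilla, 0.32 for keratinocyte, 0.24 for endothelial, 0.14 for innate lymphoid and dendritic epidermal T cell, 0.09 for Langerhans cell and macrophage, 0.05 for Schwann cell, -0.07 for mast cell, -0.30 for fibroblast and -0.61 for Merkel cell genes, over 2 to 9 tested genes each. Without adult replicates 3 and 4 the median was 0.35 for hair matrix, 0.72 for fibroblast, 0.28 for mast cell, -0.13 for innate lymphoid and dendritic epidermal T cell and -0.68 for Langerhans cell and macrophage genes, each of which turned direction, and -0.47 for stem cell genes, which did not.

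In centred log2 CPM over the 8 libraries, the closest pair of members was Tyr and Pmel, with a root-mean-square distance of 0.33. Dct and Mlana followed at 0.39, Pmel and Kit at 0.41 and Mlana and Slc45a2 at 0.45, whereas Tyr lay 0.99 from Dct and 1.03 from Tyrp1, with which it shares the M-box core printed above. The farthest pair was Mitf and Oca2 at 1.77. Of 12800 genes outside the members with a mean of at least 1 CPM and a symbol other than that of a predicted or unnamed gene, those nearest to the mean profile of the 7 production genes included Mtcl1 (0.24), Nup210 (0.26), Hunk (0.28), Gnmt (0.30), Prr5l (0.35), Dclk3 (0.35) and Evl (0.35). Mtcl1 encodes a microtubule crosslinker and Nup210 a nuclear pore protein. Nup210 stood at 10.6, 2.44, 5.66 and 4.87 CPM in aged replicates 1 to 4, against 5.82, 5.16, 4.38 and 11.4 CPM in adult replicates 1 to 4, with aged replicate 1 and adult replicate 4 again the highest of their group. None of these genes was called. Of the 7 production genes themselves, Mlana lay 0.31 and Tyrp1 0.41 from their mean profile, against 0.73 for Tyr and 1.03 for Oca2.

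Genes that act around the members gave the same picture of no calls. Of 82 further pathway genes 72 were tested, and 0 were called by edgeR, DESeq2 or limma-voom. At an unadjusted p under 0.05 by edgeR, 1 was higher and 3 were lower, or 5.56% against 5.99% of all tested genes. Among other genes of melanin synthesis and melanosome content, 3 of 9 tested lay above 0 and 6 below, with a median log2 fold change of -0.20. The median of this whole list, members included, was -0.22, and 0.04 without adult replicates 3 and 4. Slc24a5, the cation exchanger of the melanosome, stood at 1.38, 0.294, 0.858 and 0.604 CPM in aged replicates 1 to 4 and at 1.29, 0.714, 0.493 and 1.37 CPM in adult replicates 1 to 4, which again put aged replicate 1 and adult replicate 4 on top. Gpnmb, a relative of Pmel that macrophages also make, averaged 17.4 ± 7.09 CPM in aged cells against 10.8 ± 6.76 CPM in adult cells (log2 fold change 0.68 ± 0.43, edgeR adjusted p = 0.836).

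Of 11 further regulators 3 lay above and 8 below 0. Pax3, which acts with Sox10 on Mitf, stood at 0.877 ± 0.445 CPM in aged cells against 1.01 ± 0.358 CPM in adult cells (-0.20 ± 0.39, edgeR adjusted p = 0.943). Of 7 further receptors 3 lay above and 4 below 0. Ednrb, the endothelin receptor of melanoblasts, averaged 1.204 ± 0.703 CPM in aged cells against 1.53 ± 0.591 CPM in adult cells, and Mc1r, the melanocortin receptor that favours black pigment, 1.24 ± 0.272 CPM in aged cells against 1.34 ± 0.431 CPM in adult cells. Erbb3 had an unadjusted p of 0.0394 (-0.29 ± 0.12, edgeR adjusted p = 0.815), at 188 ± 18.4 CPM in aged cells against 229 ± 29.6 CPM in adult cells.

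Of 5 tested ligands 3 lay above 0 and 2 below. Kitl, the ligand of Kit, stood at 19.0, 9.88, 9.42 and 9.74 CPM in aged replicates 1 to 4, against 10.7, 8.90, 4.50 and 12.2 CPM in adult replicates 1 to 4 (0.41 ± 0.33, edgeR adjusted p = 0.867). Asip and Edn3 were scarce, with 11 counts of Asip, the signal for yellow pigment, over the aged libraries against 20 over the adult ones, and Edn3 at 0.822 CPM in aged replicate 1 and 0 to 0.0402 CPM in the other aged libraries, against 0 to 0.266 CPM in adult libraries. In pigment type switching 2 of 5 tested genes lay above and 3 below 0, and in melanosome biogenesis, which includes genes of lysosome-related organelles of many cells, 5 of 25 above and 20 below, with medians of -0.11 and -0.06. Without adult replicates 3 and 4 these medians were 0.31 and 0.01.

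Melanosome transport had 4 of 9 tested genes above 0 and 5 below, and held the lowest unadjusted p of the pathway. Rab27a, which tethers melanosomes to the myosin Myo5a through Mlph, averaged 56.3 ± 9.47 CPM in aged cells against 41.1 ± 9.76 CPM in adult cells (0.45 ± 0.18, edgeR adjusted p = 0.805). Sytl2, a binding partner of Rab27a, stood at 20.4, 8.88, 13.2 and 11.2 CPM in aged replicates 1 to 4, against 14.5, 15.9, 89.4 and 52.1 CPM in adult replicates 1 to 4 (-1.68 ± 0.57, edgeR adjusted p = 0.730). Its difference lay in adult replicates 3 and 4, the libraries that stood apart, and without them the log2 fold change was -0.18 for Sytl2 and 0.19 for Rab27a. Dynlt1b averaged 3.14 ± 0.39 CPM in aged cells against 4.07 ± 0.54 CPM in adult cells. Its log2 fold change was -0.38 ± 0.17 (edgeR unadjusted p = 0.0495, adjusted p = 0.824), and -0.53 without adult replicates 3 and 4. Of the melanocyte markers outside the members, 1 of 9 tested lay above 0 and 8 below, with a median of -0.31 and none called. The 1 above 0 was Cdh3, at 65.2 ± 13.8 CPM in aged cells against 57.2 ± 22.4 CPM in adult cells. That was the highest CPM in this list, not scaled to exon length. Keratinocyte markers dominated the libraries, and the part of keratinocytes in the levels of this list was not tested. Trpm1, Slc24a5, Pax3, Ednrb and Mc1r were already counted in lists above.

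The results were also taken within the replicate numbers, since the adult libraries split by them. Within replicates 3 and 4 alone, Tyrp1 was called lower in aged cells (-1.39, edgeR adjusted p = 0.0998), as the only member, and of the 72 pathway genes 5 were called higher and 8 lower. There 2135 of 17744 genes, or 12%, were called, so 1 of 10 members lies near that background. Within replicates 1 and 2 alone edgeR called 0 of all 17921 genes, while 193 higher and 399 lower ones had an unadjusted p under 0.05, 0 of them members, and Pmel, Mlana, Oca2 and Slc45a2 lay above 0. Without adult replicates 3 and 4, edgeR called 0 members, and the log2 fold change was -0.44 for Tyrp1, -0.59 for Dct and 0.29 for Tyr. Mitf, at -0.49, was then the 1 member with an unadjusted p under 0.05 (edgeR adjusted p = 1.0). That is a share of 10% of the members against 3.21% of all genes. This fit kept aged replicates 3 and 4, in which Mitf was also lower than in aged replicates 1 and 2. Within replicates 1 and 2 alone Mitf stood at -0.28, and within replicates 3 and 4 alone at 0.19.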

How the data were processed

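Total RNA of the epidermal cells was sequenced as paired reads. By the labels the molecule was polyA RNA, but the kit of the protocol keeps strand and takes total RNA after ribosomal RNA removal. The authors aligned reads to mm10 with STAR 2.5.2b and deposited raw counts per gene from featureCounts on its inbuilt annotation. Reads over several genes were counted for each, multiply aligned reads were dropped and duplicates kept. The strand setting and each sample's batch, which the study fitted, are not given in the sources used here.

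RefSeq named 25275 of the 27179 identifiers. Counts were tested with edgeR 4.0.16 in R 4.3.3 (TMM scaling, filterByExpr, 17702 genes, common biological coefficient of variation 0.258, Benjamini-Hochberg adjustment over all genes, the study's limits on p and fold for calls, here on unshrunken folds without batch), and every adjusted p comes from it. DESeq2 1.42.0, voom of limma 3.58.1, other scalings and filters, replicate blocks, and leaving libraries out were alternatives. The tests were tried on simulated data with the same dispersion for all genes and changes in well-counted genes only. This does not cover members with a wide spread or few counts. Replicates differed beyond counting error. The p-values set a difference against the spread between libraries of a group. As no batch was fitted, that spread holds any batch as well as the mice. The floor for 0 counts covers counting error only.

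All 10 members are named, with genes of fixed pathway and cell marker lists (called members, otherwise those with the smallest p, and others chosen after their values were seen) and the 8 genes with the most similar profile, of which 1 is not reported here. Members and lists were chosen with earlier results of these data known.

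Both groups carry replicate numbers 1 to 4. Deviations from the group means of aged and adult libraries with the same number correlated across genes at 0.156, 0.412, 0.205 and 0.206, all over 0.1. The numbers may thus pair the samples, but this rests on the data and not on a label, and is not settled. The main fit has no block, and the block is an alternative fit. Unlike numbers reached up to 0.304, for aged replicate 4 with adult replicate 3, above the 0.206 of aged replicate 4 with adult replicate 4.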

Additional observations from a re-analysis of the deposited data

Results flagged for a closer look

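The level of Dct in aged replicate 1, at 14.8 CPM, lay far above the other 3 aged libraries, with a gap of 0.841 of the aged range, past Dixon's 95% limit for 4 samples. The ratio of Dct to Tyr per kilobase in the same library, 1.61, stood apart from the other aged libraries by 0.980 of their range, and its ratio of Tyrp1 to Tyr, 1.37, by 0.834. These 3 values share 1 library and its counts of Dct, Tyrp1 and Tyr. Chance marks about 1 in 20 groups, and 48 groups of 4 were checked. The same library also had the highest summed levels of the aged group for inner root sheath genes (375 CPM), fibroblast genes (84.8 CPM) and Langerhans cell and macrophage genes (301 CPM), whose part in these values was not tested.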

How the results depend on the processing

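Of 206 alternative values of single members, 179 kept their direction and their side of the threshold, 26 changed direction and 1 passed the threshold. The one that passed was Tyrp1 within replicates 3 and 4 alone (-1.39), where 1 member was called lower, 5 pathway genes higher and 8 lower, and 1159 of all genes higher and 976 lower. With all 8 libraries the smallest adjusted p of a member was 0.462, for Tyrp1 at -1.11 in edgeR with the replicate block.

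With the replicate block the calls over all genes fell to 1 higher and 2 lower, and it changed no call of a member. DESeq2 called 68 higher and 122 lower, the pair of replicates as a term 21 and 36, library size alone 1 and 12, the fit without adult replicates 3 and 4 gave 3 and 7, and replicates 1 and 2 alone gave 0 and 0. With 1 library left out, 1 to 4 genes were higher and 5 to 12 lower.

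Every member whose estimate changed direction had an estimate smaller than its standard error over all 8 libraries. The same held for Dct and Kit, which did not change direction. Scaling by library size alone gave 0.049 for Slc45a2. Without adult replicates 3 and 4 the log2 fold change was 0.29 for Tyr, 0.041 for Pmel, -0.29 for Sox10, 0.95 for Oca2 and 0.30 for Slc45a2. Within replicates 1 and 2 it was 0.16 for Pmel, 0.38 for Mlana, -0.31 for Sox10, 1.07 for Oca2 and 0.91 for Slc45a2, and within replicates 3 and 4 it was 0.19 for Mitf. With each library left out in turn it ranged from -0.25 to 0.051 for Tyr, -1.17 to 0.10 for Mlana, -0.28 to 0.21 for Mitf, -0.29 to 0.53 for Sox10, -0.99 to 0.56 for Oca2 and -1.65 to 0.57 for Slc45a2, and stayed below 0 for Tyrp1, Dct, Pmel and Kit. The causes were not tested. A minimum of 1 CPM in 4 libraries left no value for Mlana, Oca2, Slc45a2 and Sox10, whose few counts limit them.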
